A study of Canis lupus with 20 samples.

Results

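Gene expression in the left atrium of dogs that had lost the right kidney (uninephrectomy) was compared with that of sham operated dogs, across all probe sets of an Affymetrix canine array other than its controls. The comparison takes the 5 atrial arrays whose sample titles name uninephrectomy and the 5 whose titles name the sham operation, 10 of the 20 arrays in the series. The other 10 arrays hold left ventricle of both operations, 5 for each, and enter here for the estimate of the spread between arrays and for values set beside the atrial ones. All groups are heart tissue of normal dogs, killed 12 weeks after the operation. No drug, diet or genetic change is named for any group, and age, sex and breed are not given in the sources used here. The series text assigns 6 dogs to each operation and puts 5 samples per chamber on arrays with no repeated measurement, so each array was taken as 1 tissue sample of 1 dog. As a model, the operation removes renal mass and leaves the other kidney in place. Blood pressure, renal function and atrial size are not among the data. The comparison asks which atrial transcripts differ after the loss of renal mass.

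The left atrium takes the load that volume retention and a stiff ventricle pass upstream. Its myocytes store and release natriuretic peptides, and its fibroblasts lay down collagen, fibronectin and proteoglycans, which slow conduction when they accumulate. Work in kidney disease has drawn attention to this chamber through interstitial fibrosis, neurohormones such as angiotensin and aldosterone, glucocorticoid action, inflammation and complement, and the shift of fuel use between fatty acids and glucose.

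The 10 atrial arrays were alike in overall signal. Their median log2 signal lay between 2.33 and 2.36 and their upper quartile between 5.30 and 5.53, and the correlation of any atrial array with another lay between 0.983 and 0.994. Loss of signal from the 3' end inward along control transcripts, which grows as RNA degrades, averaged, in log2 units, 1.10 ± 0.26 (SD, n = 5) after uninephrectomy and 1.19 ± 0.19 (SD, n = 5) after sham (two-sided exact permutation p = 0.532, where the smallest possible p is 0.00794). The tissue carried its defining markers. MYL4, the atrial essential light chain, lay between 14.17 and 14.48 in all 10 arrays, and the atrial transcription factor NR2F1 between 8.75 and 9.63, against at most 2.67 for NR2F1 in the ventricle. MYL2, the ventricular regulatory light chain, lay between 14.27 and 15.02 in the ventricle and far below that in the atria, at 4.45, 4.71, 3.37, 7.40 and 3.69 in uninephrectomy arrays 1 to 5 and 3.81, 3.58, 2.70, 5.53 and 3.45 in sham arrays 1 to 5. Array 4 held the highest MYL2 value in both groups. IRX5, another ventricular marker, lay between 0.62 and 1.29 in the atria. In bulk tissue such as this, fewer cells of a type and less RNA per cell cannot be told apart.

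No probe set passed the test. Limma called 0 of 30047 tested probe sets at an adjusted p under 0.05 (0%), and the smallest adjusted p was 0.631. At an unadjusted p under 0.05 there were 2010 probe sets (6.69%), of which 1011 were higher (3.36%) and 999 lower (3.32%) after uninephrectomy. The split moved with the scaling, to 1161 higher and 800 lower once every array had an equal median, and to 880 higher and 1150 lower after quantile normalization. With 1 probe set per gene, the brightest, 379 of 11423 genes were higher at that level (3.32%) and 377 lower (3.30%). The middle of the distribution sat at zero, with a median log2 difference of -0.01 and 5th and 95th percentiles of -0.22 and 0.31. The median standard error of a difference was 0.10, which gives a 95% interval of about 0.22 on either side for a typical gene. A total of 4378 genes (38.3%) lay under log2 3 in both atrial groups, near the low end of the scale where differences are compressed.

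**Figure D1:**
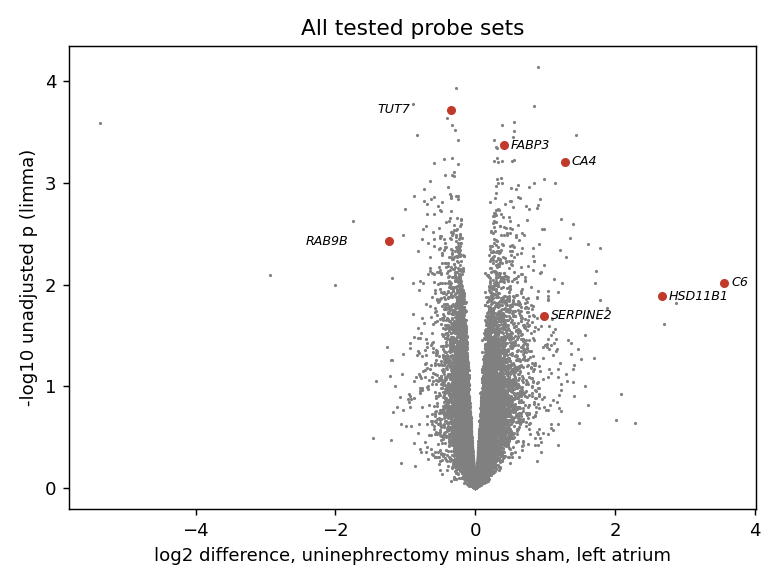
Each grey point is a tested probe set, plotted by its log2 difference between uninephrectomy and sham atria (horizontal axis) and by -log10 of the unadjusted limma p (vertical axis), with 7 genes marked in red at their brightest probe set. Of the 7 marked genes, C6 and HSD11B1 have the largest differences but not the smallest p. The point farthest to the left, at -5.37, is a probe set without a gene symbol, Cfa.9728.1.A1_at, and its p is among the smallest.

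A second description of separation used no test: a probe set was counted where all 5 uninephrectomy values lay above, or all below, all 5 sham values. Of the tested probe sets 131 were separated on the higher side (0.436%) and 148 on the lower side (0.493%). That split depended on the scaling, and became 157 higher and 112 lower when the arrays were shifted to the same median. Among genes, 58 were separated higher (0.508%) and 48 lower (0.420%).

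The 24 genes with the smallest p among those of at least log2 4 in an atrial group, 12 in each direction, had differences equivalent to 1.16-fold to 2.43-fold. In 14 of them, 9 higher and 5 lower, the groups did not overlap, which follows in part from choosing them by p. Their adjusted p by limma was 0.631 or 0.637. They belong to many processes. On the higher side they include FABP3, EXT2, CA4, BNIP3L and ENO1, and on the lower side TUT7, AGTPBP1, WWTR1, CERT1 and FHIT.

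FABP3, the heart fatty acid binding protein that carries fatty acids through the myocyte cytosol, had log2 signals of 12.74, 12.67, 12.91, 12.77 and 12.55 in uninephrectomy arrays 1 to 5. In sham arrays 1 to 5 it had 12.55, 12.36, 12.51, 11.92 and 12.27. The lowest uninephrectomy value just cleared the highest sham value, and sham array 4 was the lowest of all. The difference was 0.41 ± 0.10 (SE), or 1.33-fold (limma adjusted p = 0.631), and both FABP3 probe sets were higher.

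EXT2, which with EXT1 builds the heparan sulfate chain, had 8.05, 8.30, 8.002, 8.06 and 8.01 after uninephrectomy and 7.48, 7.79, 7.56, 7.87 and 7.84 after sham. The groups did not overlap, and uninephrectomy array 2 stood above the other arrays of its group. The difference was 0.38 ± 0.08 (adjusted p = 0.631). Its dimmer second probe set, at 3.69 and 3.17, differed by 0.53 ± 0.20. EXT1, its partner in the polymerase, differed by 0.04 ± 0.09. Of the 29 measured genes of heparan sulfate and glycosaminoglycan synthesis 16 were higher, 2 of them at an unadjusted p under 0.05, EXT2 and the heparan sulfate proteoglycan SDC2 (0.41 ± 0.17), and 1 was lower at that level, CHPF of chondroitin polymerisation (-0.30 ± 0.14, and -0.19 without uninephrectomy array 2). The median of the list was 0.04, and 15 of its members lay under log2 3 in both groups.

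CA4, a carbonic anhydrase anchored on the outer face of capillary endothelium and of muscle membranes, had the largest difference among the 24 genes. It had 7.64, 7.89, 7.73, 8.41 and 7.31 after uninephrectomy and 7.0001, 6.94, 5.29, 6.85 and 6.50 after sham. All uninephrectomy arrays lay above all sham arrays, and sham array 3 was far below the others. The difference was 1.28 ± 0.31, or 2.43-fold (adjusted p = 0.631), and 0.97 without sham array 3. A second CA4 probe set differed by 0.76 ± 0.28. Set beside it, the ventricular difference of CA4 was 0.94 ± 0.31.

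BNIP3L, a receptor on mitochondria that marks them for autophagy, had 6.24, 6.45, 6.31, 6.13 and 6.54 after uninephrectomy and 5.98, 5.81, 5.59, 5.80 and 5.84 after sham, with no overlap. The difference was 0.53 ± 0.13 (adjusted p = 0.631). ENO1, the glycolytic enolase, had 11.26, 11.28, 11.51, 11.24 and 11.20 against 11.13, 10.95, 10.95, 10.87 and 11.08, again with no overlap and with uninephrectomy array 3 above the rest of its group. It differed by 0.30 ± 0.08 (adjusted p = 0.637), and 3 of its 4 probe sets were higher. The remaining bright genes on the higher side were CAVIN3 of the caveolar coat (0.27 ± 0.06), the actin branching regulator CTTN (0.27 ± 0.06), the spindle protein NUSAP1 (0.98 ± 0.25), the glycan extending enzyme B3GNT2 (0.59 ± 0.15), the ribosome assembly factor UTP25 (0.52 ± 0.14), TMEM248 (0.21 ± 0.06) and LHFPL6 (0.42 ± 0.11). CAVIN3, CTTN, B3GNT2 and TMEM248 did not overlap between groups, and CTTN was higher in 2 of its 3 probe sets. NUSAP1 had 2 of its 4 probe sets higher, and the other two, both dim, were slightly lower.

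**Figure D2:**
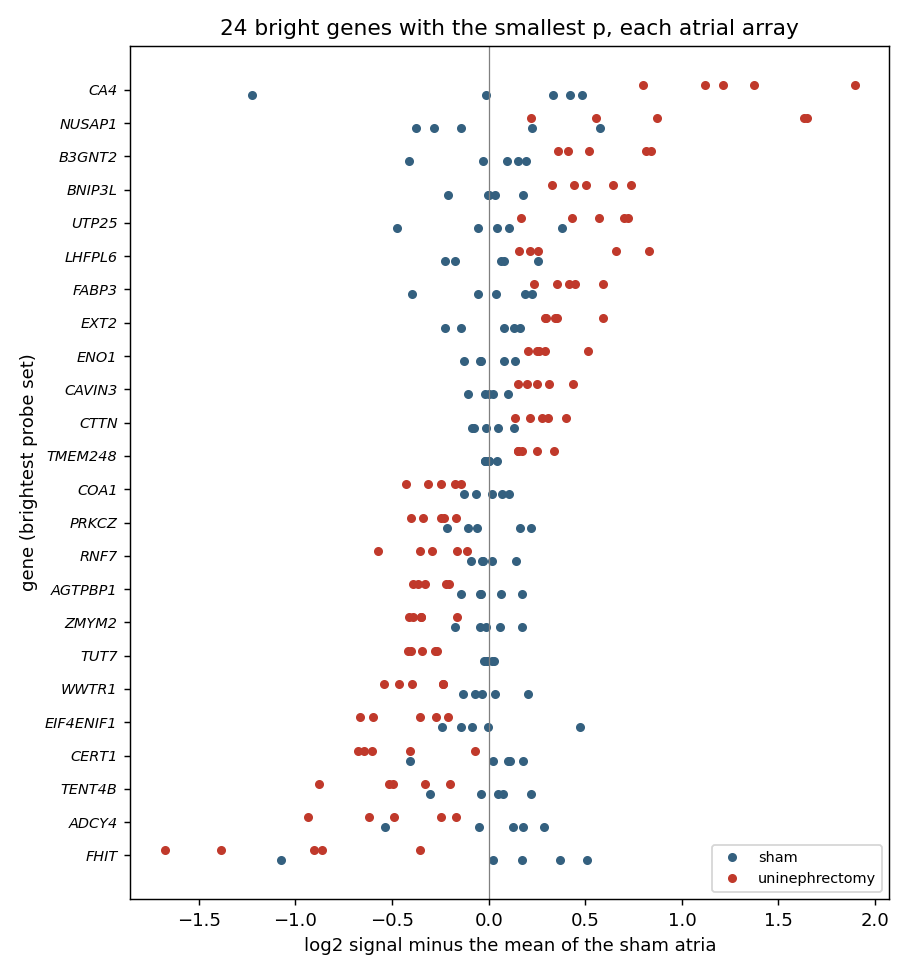
Each row is 1 of the 24 bright genes with the smallest p, and each point is 1 atrial array, plotted as its log2 signal minus the mean of the 5 sham arrays (blue sham, red uninephrectomy). CA4 and FHIT show the widest shifts and a wide spread, while TMEM248 and TUT7 show small shifts with tight groups.

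On the lower side TUT7, which adds uridines to the ends of RNA, had the smallest p of the named bright genes. It had 3.91, 3.92, 3.98, 4.04 and 4.06 after uninephrectomy and 4.34, 4.30, 4.32, 4.35 and 4.31 after sham. Both groups were tight and did not overlap, with a difference of -0.34 ± 0.07 (adjusted p = 0.631). The signal is weak, and its other two probe sets, which are dimmer still, were not lower (0.09 ± 0.13 and 0.00 ± 0.07). TENT4B, another RNA tailing enzyme, differed by -0.48 ± 0.13 with both probe sets lower.

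AGTPBP1, which trims glutamate chains from tubulin, had 9.28, 9.22, 9.41, 9.39 and 9.25 after uninephrectomy against 9.57, 9.57, 9.68, 9.79 and 9.47 after sham, a difference of -0.30 ± 0.08 with no overlap. WWTR1, the Hippo pathway coactivator also called TAZ, had 8.73, 8.79, 8.96, 8.65 and 8.95 against 9.06, 9.22, 9.12, 9.16 and 9.39, a difference of -0.37 ± 0.11 with no overlap. Both probe sets of WWTR1 were lower. CERT1, which moves ceramide from the endoplasmic reticulum to the Golgi, had 6.20, 6.16, 6.73, 6.13 and 6.39 against 6.90, 6.91, 6.98, 6.82 and 6.39, so that only sham array 5 reached into the uninephrectomy range. Its difference was -0.48 ± 0.13, and 4 of 5 probe sets were lower.

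FHIT, a hydrolase of diadenosine nucleotides, had the largest difference on this side, at 3.11, 3.92, 3.88, 3.40 and 4.43 against 5.15, 5.29, 4.96, 3.71 and 4.81. Sham array 4 lay within the uninephrectomy range, and the difference was -1.04 ± 0.31 with all 4 probe sets lower. The others were the atypical protein kinase PRKCZ (-0.28 ± 0.07), COA1 of cytochrome oxidase assembly (-0.26 ± 0.07), the translation repressor EIF4ENIF1 (-0.42 ± 0.12), the ubiquitin ligase subunit RNF7 (-0.30 ± 0.09), the zinc finger protein ZMYM2 (-0.33 ± 0.10) and the adenylyl cyclase ADCY4 (-0.49 ± 0.15). COA1 and RNF7 did not overlap between groups. Each of these genes had adjusted p = 0.637.

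The largest differences among genes whose groups did not overlap added 5 genes on the higher side. DYNLRB2, a dynein light chain, had 6.92, 7.04, 6.85, 7.16 and 6.89 after uninephrectomy and 6.06, 6.20, 6.07, 6.67 and 6.63 after sham, a difference of 0.65 ± 0.24. LMCD1, a LIM domain protein that represses GATA6 and is studied in cardiac hypertrophy, had 6.32, 6.78, 6.36, 7.22 and 6.58 against 6.26, 5.76, 6.27, 6.17 and 5.79, a difference of 0.60 ± 0.23 in which the groups nearly touched. NTN4, a netrin of basement membranes, differed by 0.54 ± 0.21, LOC476816 by 0.56 ± 0.22 and the planar polarity gene PRICKLE1, which is dim, by 0.61 ± 0.24. These standard errors pool the spread of atrium and ventricle, so that a gene can be separated in the atrium and still have a modest p. Pooling can also give other genes a smaller p than the atrial arrays alone would. The adjusted p of the 5 genes lay between 0.679 and 0.685.

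On the lower side the same rule added MYCBP, a partner of MYC (-0.48 ± 0.15), the zinc finger gene ZNF879 (-0.38 ± 0.10), the endosomal adaptor TOM1 (-0.38 ± 0.14), the sugar phosphate carrier SLC37A1 (-0.35 ± 0.11), the poly(A) binding protein LARP4 (-0.35 ± 0.15) and UBN1 of the HIRA histone chaperone (-0.33 ± 0.12). TOM1 showed how tight the sham arrays were, all between 7.94 and 8.04, against 7.72, 7.53, 7.85, 7.38 and 7.57 after uninephrectomy. SLC37A1 and ZNF879 were each lower in 1 of their 2 probe sets.

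Larger differences came from genes that varied widely within a group. A difference of at least 1 log2 was seen in 39 genes, 29 higher and 10 lower, of which 20 were at an unadjusted p under 0.05 and only CA4 was separated. In 33 of the 39 the SD within at least 1 atrial group was 1 log2 or more, while the median SD over all genes was 0.15 after uninephrectomy and 0.16 after sham. Single arrays carried many of them. Uninephrectomy array 2 was the highest of its group in 17 of the 29 higher genes and array 4 in 7, and sham array 3 was the lowest of its group in 13 and sham array 5 in 7.

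C6, a component of the complement membrane attack complex, showed the largest difference among genes, with 7.39, 11.12, 3.37, 7.85 and 6.80 after uninephrectomy and 1.73, 5.75, 3.12, 2.64 and 5.45 after sham. Of the uninephrectomy arrays 4 lay above every sham array, while array 3 lay among them. The difference was 3.57 ± 1.24 (adjusted p = 0.663) and 2.61 without uninephrectomy array 2, and a second C6 probe set differed by 2.71 ± 1.10.

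HSD11B1, the enzyme that regenerates active glucocorticoid inside cells, had 8.03, 9.71, 4.92, 7.52 and 4.21 after uninephrectomy, where the sham arrays all lay between 4.03 and 4.37. Uninephrectomy arrays 1, 2 and 4 were several log2 units above every sham array, array 3 was slightly above, and array 5 lay within the sham range. The difference was 2.67 ± 0.97 (adjusted p = 0.679), and 1.96 without uninephrectomy array 2. A second HSD11B1 probe set had 7.32, 9.95, 3.77, 6.48 and 3.82 against 3.50, 3.61, 3.15, 3.26 and 3.47, a difference of 2.87 ± 1.07 with no overlap. The order of the arrays was alike in both probe sets, with array 2 highest and arrays 3 and 5 lowest.

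Other genes of this kind, several of them chosen after their values were seen, rested on still fewer arrays. COMP, a cartilage and tendon matrix protein, had 9.23 in uninephrectomy array 2, where the other uninephrectomy arrays lay between 3.89 and 4.80 and the sham arrays between 3.42 and 4.61. Its difference of 1.48 ± 0.68 became 0.49 without that array. POSTN (periostin, a matricellular protein of activated fibroblasts) had 8.85 in the same array, and its difference of 1.57 ± 0.90 became 0.42 without it. SFRP4, a secreted Wnt antagonist, had 7.86 there, and its difference of 1.59 ± 0.63 became 0.79.

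MYBPC1, the myosin binding protein of slow skeletal muscle, had 10.43, 11.45, 2.55, 10.95 and 2.62 after uninephrectomy and 7.50, 3.93, 9.38, 3.22 and 3.91 after sham, so that high and low arrays occurred in both groups. VSNL1, a neuronal calcium sensor found in atrial muscle, had 7.92, 7.24, 8.26, 6.24 and 6.65 against 4.28, 6.63, 2.59, 5.98 and 7.88, a difference of 1.79 ± 0.66, and 1.07 without sham array 3. FEM1C, a substrate receptor of a ubiquitin ligase, had 6.90, 7.13, 7.08, 6.11 and 6.94 against 6.46, 5.39, 4.48, 5.86 and 5.94, a difference of 1.21 ± 0.37. On the lower side, RAB9B, a small GTPase of late endosomes, had 5.17, 4.62, 6.15, 4.60 and 6.42 against 6.73, 7.36, 6.76, 7.05 and 5.21, and only sham array 5 overlapped. Its difference was -1.23 ± 0.37 (adjusted p = 0.637). TPD52, a vesicle trafficking protein, differed by -1.19 ± 0.41.

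**Figure D3:**
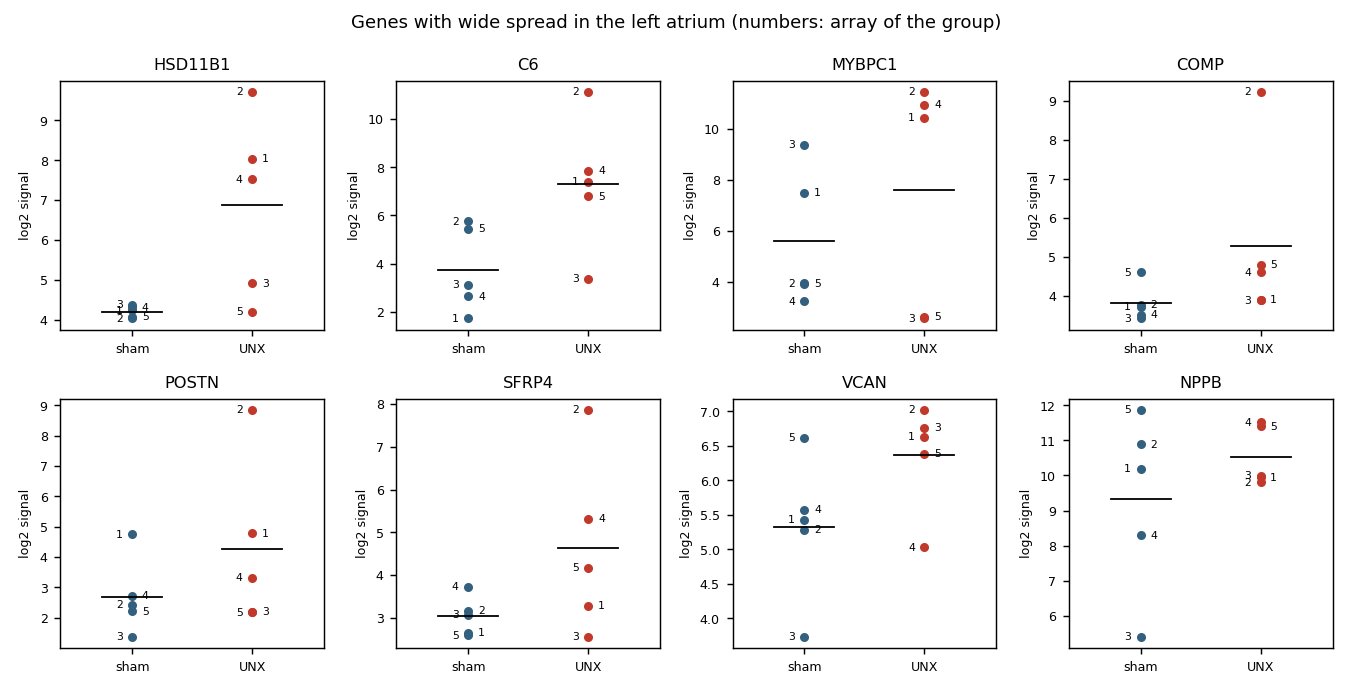
Each panel gives the log2 signal of 1 gene in the 5 sham (blue) and 5 uninephrectomy (red, UNX) atrial arrays, with the array number beside each point, the group mean as a bar and a vertical scale of its own. COMP, POSTN and SFRP4 stand out in uninephrectomy array 2, VCAN and NPPB are lowest in sham array 3, and HSD11B1 is spread in the uninephrectomy group alone of the 2 groups.

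Genes of the extracellular matrix and of fibroblasts leaned to the higher side. Of the 60 measured matrix genes 50 were higher after uninephrectomy, where 48.1% of all genes were, and the median of the list was 0.26 against -0.01. At an unadjusted p under 0.05 there were 8 members higher and 0 lower, and no member was called or separated. Over all genes 3.32% were higher and 3.30% lower at that level, and 0.928% were separated. These shares and the 48.1% are the background for the counts of every list. The 8 were THBS2, FBLN1, SERPINE2, PCOLCE, VCAN, MMP2, DCN and LUM. Of the 60 members 45 lay at log2 4 or more in an atrial group. Probe sets with a mean of at least log2 4 leaned higher too, with 532 higher and 405 lower at an unadjusted p under 0.05. The 48.1% includes dim genes, so it is not a share over genes of like brightness. Averaged over the list, uninephrectomy arrays 1 to 5 had 6.69, 7.32, 6.66, 7.01 and 6.77 and sham arrays 1 to 5 had 6.39, 6.59, 6.28, 6.71 and 6.94. The groups overlapped, with sham array 5 above 3 of the uninephrectomy arrays and uninephrectomy array 2 above all others. Without uninephrectomy array 2 the median of the list was 0.15.

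Among secreted regulators of the matrix, SERPINE2, an inhibitor of thrombin and of plasminogen activators, had 9.75, 10.73, 9.999, 10.73 and 10.45 after uninephrectomy and 9.03, 10.15, 8.84, 9.20 and 9.53 after sham. Sham array 2 was the one sham array inside the uninephrectomy range. The difference was 0.98 ± 0.39 (adjusted p = 0.685) at the brightest probe set and 1.05 ± 0.49 and 1.44 ± 0.33 at the other two. THBS2, a matricellular thrombospondin, differed by 0.67 ± 0.20 at a dim signal, with 2.17, 3.47, 1.87, 2.88 and 2.76 against 1.89, 1.88, 1.93, 1.92 and 2.17.

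Among structural proteins, FBLN1 (fibulin-1, of elastic fibres and basement membranes) had 8.75, 9.47, 8.33, 9.34 and 8.86 against 7.66, 8.30, 7.88, 8.44 and 8.85. Sham arrays 4 and 5 lay inside the uninephrectomy range, and the difference was 0.72 ± 0.27 (adjusted p = 0.679), with all 5 probe sets higher. VCAN (versican, a hyaluronan binding proteoglycan) had 6.63, 7.02, 6.76, 5.03 and 6.38 against 5.42, 5.28, 3.74, 5.57 and 6.62. Its difference was 1.04 ± 0.45, and 0.64 without sham array 3. The small proteoglycans that coat collagen fibrils, DCN (decorin) and LUM (lumican), differed by 0.32 ± 0.15 and 0.41 ± 0.20, and the procollagen processing enhancer PCOLCE by 0.85 ± 0.35. LUM became 0.26 without sham array 3. MMP2, a gelatinase that degrades matrix, differed by 0.70 ± 0.32, and by 0.46 without sham array 1.

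The fibrillar collagens themselves were less clear. COL1A1 had 10.60, 11.81, 10.99, 11.61 and 10.74 after uninephrectomy and 9.75, 11.18, 10.39, 11.31 and 11.72 after sham, a difference of 0.28 ± 0.31 that became -0.00075 without sham array 1. COL3A1 had 11.43, 12.13, 12.17, 12.29 and 11.80 against 10.26, 11.96, 11.31, 12.31 and 12.60, a difference of 0.27 ± 0.32 that became -0.09 without sham array 1. In COL3A1 the sham arrays covered the whole uninephrectomy range, and in COL1A1 all of it but array 2. COL1A2 differed by 0.41 ± 0.22, COL5A2 by 0.43 ± 0.21, FN1 (fibronectin) by 0.58 ± 0.30 and FBN1 (fibrillin-1) by 0.42 ± 0.21, each with an unadjusted p above 0.05.

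Of the 17 measured fibroblast markers 14 were higher, 3 of them at an unadjusted p under 0.05 (FBLN1, DCN and LUM) and 0 lower at that level, with a median of 0.27. The list shares 7 members with the matrix list. Its median was 0.14 without sham array 1 and 0.17 without sham array 3. PDGFRA, a receptor that marks fibroblasts, differed by 0.52 ± 0.30, DPT (dermatopontin) by 0.35 ± 0.19 and VIM (vimentin) by 0.22 ± 0.16. Of the markers of valve and cartilage-like matrix 7 of 8 were higher, with a median of 0.25 that became 0.11 without uninephrectomy array 2. The mean of that list was 5.28 in uninephrectomy array 2, between 3.43 and 3.97 in the other uninephrectomy arrays and between 3.37 and 4.03 in the sham arrays. Of its 8 members 5 had group means under log2 3 in both groups, among them ACAN, SOX9, HAPLN1 and COL2A1, which define cartilage. Within uninephrectomy array 2, however, ACAN (aggrecan) stood at 4.01 where the other 9 atrial arrays lay between 1.72 and 2.02, HAPLN1, which links aggrecan to hyaluronan, at 2.74 where the others lay between 1.70 and 2.09, and the cartilage layer protein CILP at 7.96 where the others lay between 2.89 and 5.49. In that array SOX9 was at 2.55 and COL2A1 at 2.18, within the range of the others. Whether valve or other matrix-rich tissue in that sample had a part in the matrix result was not tested.

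**Figure D4:**
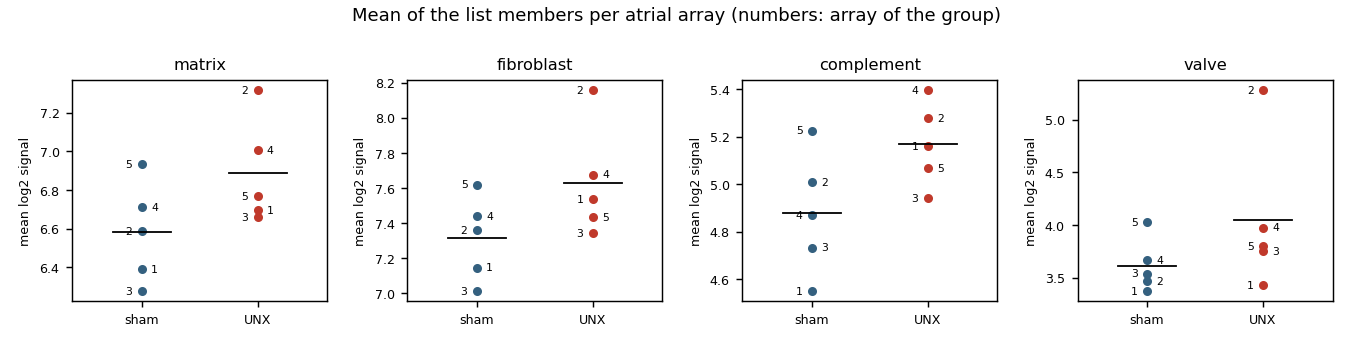
Each point is the mean log2 signal over the measured members of a list in 1 atrial array (blue sham, red uninephrectomy, numbers for the array, bars for group means, a vertical scale for each panel). Uninephrectomy array 2 is the highest of all arrays in the matrix, fibroblast and valve panels, and sham arrays 1 and 3 are the lowest in the matrix, fibroblast and complement panels.

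In TGF-beta signalling, the main profibrotic pathway of the heart, 16 of 24 genes were higher with a median of 0.03, 3 of them at an unadjusted p under 0.05 and 0 lower at that level. The ligand TGFB1 had 5.09, 5.21, 5.06, 5.58 and 5.54 after uninephrectomy and 5.42, 5.43, 5.74, 5.56 and 5.44 after sham, a difference of -0.22 ± 0.12. TGFB2 differed by 0.56 ± 0.35 and TGFB3 by -0.02 ± 0.11. The 3 genes at that level were the receptor TGFBR2 (0.35 ± 0.16) and the latent TGF-beta binding proteins LTBP4 (0.43 ± 0.18) and LTBP3 (0.43 ± 0.19), of which LTBP3 became 0.18 without uninephrectomy array 2. That level rests on the spread pooled with the ventricular arrays. With limma on the atrial arrays alone, the unadjusted p was 0.111 for TGFBR2, 0.108 for LTBP3 and 0.0294 for LTBP4. The intracellular mediators SMAD2, SMAD3 and SMAD4 lay at -0.03 ± 0.13, -0.10 ± 0.10 and 0.07 ± 0.07.

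Complement genes were higher in 19 of 26 members, where 48.1% of all genes were, with a median of 0.15. At an unadjusted p under 0.05 there were 4 higher and 1 lower, beside 3.32% and 3.30% of all genes. None was separated, beside 0.928% of all genes. CLU (clusterin), a chaperone that blocks the terminal complex, had 10.53, 11.07, 10.41, 11.12 and 10.31 after uninephrectomy and 10.18, 9.67, 9.72, 9.71 and 10.58 after sham. Sham array 5 alone lay in the uninephrectomy range. The difference was 0.71 ± 0.25 (adjusted p = 0.663).

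C1QA of the first component was nearly constant after uninephrectomy, at 6.16, 6.11, 6.08, 6.14 and 6.17, and varied after sham, at 5.11, 6.00, 4.99, 5.88 and 6.16, a difference of 0.50 ± 0.22. CD59, a membrane inhibitor of the attack complex, differed by 0.30 ± 0.13, and C8G had a difference of -0.23 ± 0.09 at a dim signal, and -0.14 without uninephrectomy array 5. The classical pathway proteases C1S and C1R differed by 0.47 ± 0.25 and 0.44 ± 0.32, and C3 by 0.77 ± 0.62. In the list 13 of the 26 members lay under log2 3 in both groups. The median was 0.07 without sham array 1 and also 0.07 without uninephrectomy array 4. All 3 chains of C1q measured here also mark macrophages and monocytes, whose markers were higher in 12 of 17 (median 0.12), 1 of them, C1QA, at an unadjusted p under 0.05.

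Inflammatory cytokine and adhesion genes showed no lean, with 15 of 32 higher and a median of -0.00. The neutrophil chemokine CXCL8 had 8.79, 10.13, 10.06, 9.31 and 9.97 after uninephrectomy and 9.64, 10.58, 9.97, 10.50 and 11.00 after sham, a difference of -0.69 ± 0.31 and the only member at an unadjusted p under 0.05. The adhesion molecule ICAM1 differed by 0.37 ± 0.18, with 10.92 in uninephrectomy array 2 and 10.17 to 10.38 in the rest of that group, and by 0.24 without sham array 3. IL6, CCL2 and TNF lay at 0.14 ± 0.32, 0.16 ± 0.18 and -0.13 ± 0.12. Interferon response genes were higher in 16 of 24 members with a median of 0.08 and 0 members at an unadjusted p under 0.05.

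In the glucocorticoid and mineralocorticoid list 10 of 18 genes were higher, with a median of 0.04. HSD11B1 was 1 of 2 members at an unadjusted p under 0.05. The other was NR3C1, the glucocorticoid receptor, with 5.52, 6.19, 5.84, 6.09 and 5.83 after uninephrectomy against 6.38, 6.35, 6.34, 6.10 and 5.95 after sham, a difference of -0.33 ± 0.14 with all 3 probe sets lower. Genes that glucocorticoid induces gave mixed values: TSC22D3 0.25 ± 0.13, FKBP5 0.41 ± 0.28, PER1 0.10 ± 0.10, ZBTB16 0.13 ± 0.14 and SGK1 -0.19 ± 0.18. TSC22D3 had 8.50, 9.09, 8.33, 8.80 and 8.49 in uninephrectomy arrays 1 to 5 and lay between 8.32 and 8.47 in the sham arrays, and its difference was 0.14 without uninephrectomy array 2. Arrays 2 and 4 were high in both TSC22D3 and HSD11B1, while arrays 1 and 5 had nearly equal TSC22D3 values and HSD11B1 values of 8.03 and 4.21. HSD11B2, which inactivates glucocorticoid, differed by -0.01 ± 0.09.

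Of 17 renin-angiotensin, endothelin and adrenergic genes 7 were higher, with a median of -0.03. The vasodilator peptide ADM (adrenomedullin) was the only member at an unadjusted p under 0.05, with 10.11, 10.54, 10.92, 10.33 and 10.35 after uninephrectomy against 10.56, 10.93, 10.96, 10.97 and 10.91 after sham. Sham array 1 stood apart from its tight group, and the difference was -0.42 ± 0.16 (adjusted p = 0.679). The angiotensin receptors AGTR1 and AGTR2 were dim and differed by 0.05 ± 0.10 and -0.01 ± 0.07, and the endothelin receptor EDNRA by 0.04 ± 0.09.

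Natriuretic peptide and stretch genes were higher in 11 of 22 members, with a median of -0.01. NPPB, the B-type natriuretic peptide, had 9.94, 9.81, 9.99, 11.51 and 11.40 after uninephrectomy and 10.19, 10.89, 5.41, 8.29 and 11.86 after sham, so that the sham arrays spanned the whole uninephrectomy range. The difference of 1.20 ± 0.83 became 0.22 without sham array 3. ACTA1, skeletal alpha-actin, was bright in both groups and was the only member at an unadjusted p under 0.05. It had 13.88, 13.96, 13.70, 14.02 and 13.60 against 13.86, 12.77, 13.41, 12.77 and 13.58. Sham arrays 2 and 4 were low and the other three reached or approached the uninephrectomy range. The difference was 0.55 ± 0.17 (adjusted p = 0.637), and the other two ACTA1 probe sets differed by 0.93 ± 0.25 and 0.77 ± 0.20. ANKRD1, a stretch responsive titin partner, differed by 0.04 ± 0.14 and MYH7, the slow myosin heavy chain, by -0.05 ± 0.10.

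Genes of fatty acid uptake and oxidation were higher in 14 of 37 members, with a median of -0.03, and 2 were higher and 2 lower at an unadjusted p under 0.05. FABP3 and the lipid sensing receptor PPARA stood on the higher side. PPARA had 6.33, 6.26, 6.63, 5.75 and 5.66 after uninephrectomy and 6.38, 5.41, 5.20, 4.68 and 5.29 after sham, a difference of 0.73 ± 0.27. Sham array 1 was the only sham array in the uninephrectomy range. On the lower side stood CPT1B, which loads fatty acids for entry into mitochondria, with 9.72, 9.72, 9.57, 9.47 and 9.51 against 9.78, 9.80, 9.74, 10.06 and 9.88. The CPT1B groups did not overlap, and the difference was -0.26 ± 0.10 (adjusted p = 0.683). ACAA2, the last enzyme of the oxidation cycle, differed by -0.15 ± 0.07, and PPARGC1A, the coactivator of PPARA, by 0.25 ± 0.12.

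Oxidative phosphorylation genes were bright, and 21 of 56 were higher with a median of -0.03 and all differences between -0.15 and 0.19. UQCRFS1, the iron-sulfur subunit of complex III, was the only member at an unadjusted p under 0.05 (-0.15 ± 0.07). Of 26 glycolytic genes 14 were higher with a median of 0.01, and 2 were higher and 2 lower at an unadjusted p under 0.05. The GAPDH value (-0.34 ± 0.11) comes from a dim probe set near log2 2.5 and not from the bright control probe sets of that gene.

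Lists of genes of excitation and contraction had small medians, while some of their members differed more. Of 28 calcium handling genes 11 were higher with a median of -0.02. ATP2A2, the calcium pump of the sarcoplasmic reticulum, lay between 13.75 and 14.08 in all atrial arrays and differed by -0.06 ± 0.07 (-0.02 without uninephrectomy array 3), and PLN (phospholamban), its inhibitor, by -0.13 ± 0.07. CAMK2B, a calmodulin kinase subunit, differed by -0.40 ± 0.18. TRDN (triadin), of the calcium release complex, differed by 0.29 ± 0.13 at its brightest probe set, but only 3 of its 9 probe sets were higher, and the mean over them was -0.16.

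Of 28 ion channel and gap junction genes 12 were higher, 0 were at an unadjusted p under 0.05 in either direction, and the median was -0.02. The atrial connexin GJA5 and the common cardiac connexin GJA1 differed by -0.02 ± 0.63 and -0.07 ± 0.38. In the atrial arrays GJA5 lay between 8.23 and 8.89, and its wide standard error comes from the spread of the ventricular arrays in the joint fit. KCNJ3, of the acetylcholine gated potassium channel, differed by 0.27 ± 0.24, and by 0.05 without uninephrectomy array 3. KCNJ8, a pore subunit of the ATP-sensitive channel, differed by -0.70 ± 0.35, with 8.15, 7.77, 9.67, 7.31 and 9.23 against 8.37, 9.18, 8.87, 9.78 and 9.43, and by -0.42 without uninephrectomy array 4. Of 38 sarcomere and Z-disc genes 18 were higher with a median of -0.01.

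The other lists had small medians. Cell cycle genes were higher in 18 of 29 (median 0.02), heat shock and unfolded protein genes in 16 of 36 (-0.01), ribosomal protein genes in 31 of 50 (0.01) and genes of phosphate, FGF23 and vitamin D in 7 of 18 (-0.02). Oxidative stress genes were higher in 23 of 33 (0.05) and immediate early genes in 14 of 20 (0.12), each with 0 members at an unadjusted p under 0.05. FOS, a transcription factor of the immediate early response, had 10.75, 10.77, 11.88, 10.94 and 11.74 after uninephrectomy and 10.36, 10.55, 11.01, 10.19 and 11.40 after sham, a difference of 0.51 ± 0.33.

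Apoptosis genes were higher in 13 of 27 (median -0.04), with 1 higher (BNIP3L) and 3 lower at an unadjusted p under 0.05. Among the lower ones, BAD, a BCL2 family member that promotes death, had 3.28, 2.93, 4.18, 2.98 and 4.14 against 4.30, 3.99, 4.36, 5.16 and 3.78, a difference of -0.82 ± 0.25. Hypoxia and angiogenesis genes were higher in 18 of 31 (0.05), with 3 higher and 2 lower at that level. NRP2, a VEGF coreceptor of lymphatic and venous endothelium, was lower at a dim signal (-0.59 ± 0.16), EGLN1, the prolyl hydroxylase that senses oxygen, stood at 0.30 ± 0.11, and the angiopoietin receptor TEK at 0.28 ± 0.12.

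**Figure D5:**
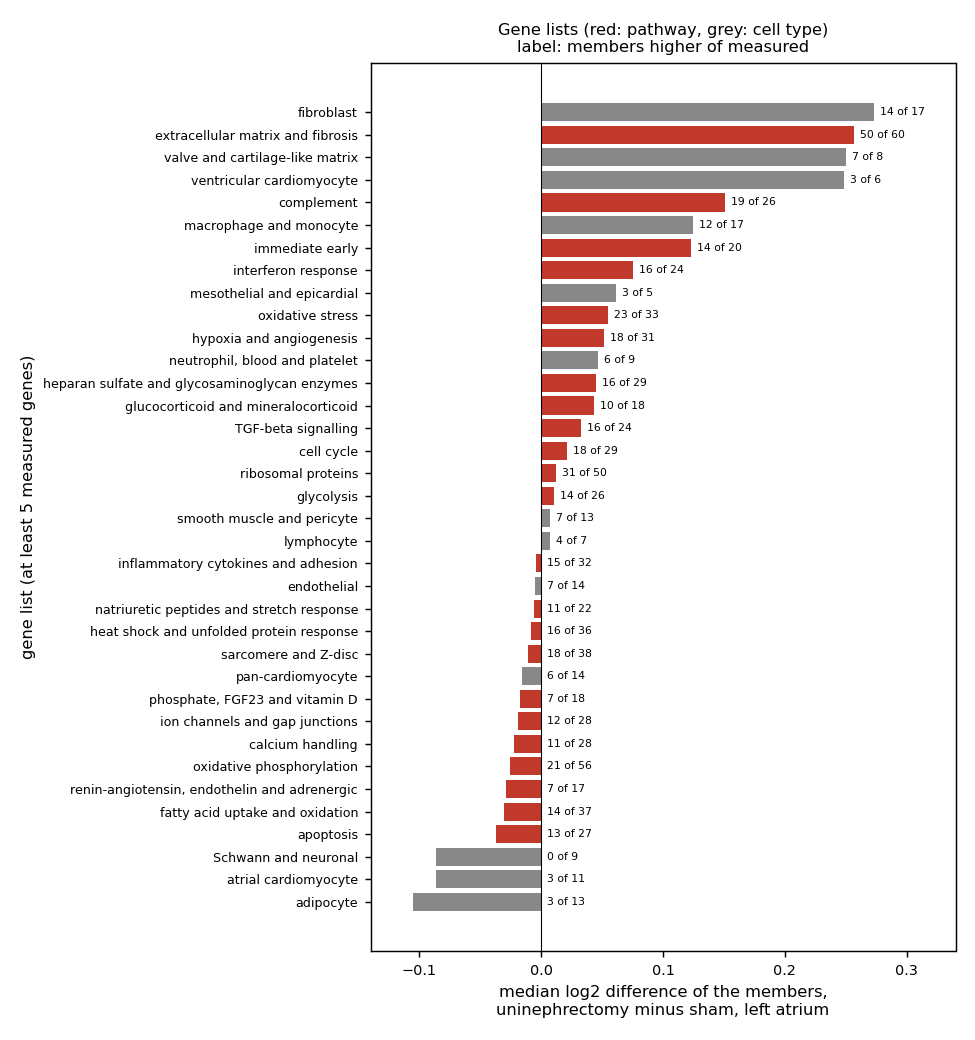
Bars give the median log2 difference between uninephrectomy and sham atria over the measured members of each list with at least 5 measured genes (red pathway lists, grey cell type lists), and the label gives how many members were higher of how many measured. The fibroblast, matrix, valve and ventricular cardiomyocyte lists have the highest medians, at 0.27, 0.26, 0.25 and 0.25, and most other lists lie within 0.1 of zero.

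Lists of markers of the other cell types had medians between -0.10 for adipocytes and 0.25 for ventricular cardiomyocytes. Of the 14 markers shared by all cardiomyocytes 6 were higher (median -0.02), and of 11 atrial cardiomyocyte markers 3 (median -0.09), where NR2F1 differed by -0.29 ± 0.13. Of 6 ventricular markers 3 were higher, MYL2, MYL3 and FHL2. The median of the 6 was 0.25, midway between IRX5 (-0.004) and FHL2 (0.50 ± 0.27). FHL2 differed by 0.23 without uninephrectomy array 2. MYL2 differed by 0.91 ± 0.57, and by 0.24 without uninephrectomy array 4. MYL3 differed by 1.12 ± 0.72, and by 0.37 without sham array 4. MYL3, the ventricular essential light chain, had 7.90, 8.85, 6.40, 6.82 and 5.76 after uninephrectomy and 6.89, 5.46, 8.81, 3.03 and 5.95 after sham, and its order across arrays was not that of MYL2.

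Endothelial markers were higher in 7 of 14 (median -0.01), with TEK higher and the junction protein CLDN5 (-0.82 ± 0.34) and ROBO4 (-0.25 ± 0.11) lower at an unadjusted p under 0.05. ROBO4 was dim, at 2.62 after uninephrectomy and 2.87 after sham, and lower in 1 of its 2 probe sets. Smooth muscle and pericyte markers were higher in 7 of 13 (0.01), lymphocyte markers in 4 of 7 (0.01) and neutrophil, blood and platelet markers in 6 of 9 (0.05). Adipocyte markers were higher in 3 of 13, with a median of -0.10. Their mean per array ran from 4.38 in uninephrectomy array 2 to 5.10 in array 1, and from 4.14 in sham array 1 to 5.75 in sham array 3. Sham array 3 was highest in adipocyte markers and lowest in matrix genes, and uninephrectomy array 2 was lowest of its group in the first and highest in the second. Sham array 1 was lowest of all in adipocyte markers and second lowest in matrix genes. The part of fat content in the matrix result was not tested. Schwann and neuronal markers were higher in 0 of 9, with a median of -0.09, and 7 of them lay under log2 3 in both groups.

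Set beside the ventricle, the bright atrial genes had the same sign there in 21 of 24, with smaller values in most. The atrial and ventricular differences were 0.38 and 0.08 for EXT2, 0.41 and 0.09 for FABP3, 0.53 and 0.05 for BNIP3L, 0.30 and 0.02 for ENO1, and 1.28 and 0.94 for CA4. CLU had 0.71 in the atrium and -0.28 in the ventricle, ACTA1 0.55 and -0.04, HSD11B1 2.67 and 0.46, and C6 3.57 and 0.33. The test of the difference between chambers called none of the 30047 tested (0%) and left 893 under an unadjusted p of 0.05 (2.97%), and the adjusted p of all 144 named genes was 1.00. That test, like the main fit behind the atrial standard errors and p-values, treats the 20 arrays as independent. Atrial and ventricular sham arrays of the same number deviated together, with correlations of 0.21 to 0.46 in all 5 pairs, while those of the uninephrectomy arrays ran from -0.24 to 0.11. With ventricular arrays of another number, the highest correlation of each uninephrectomy atrial array was 0.17 to 0.54, and that of each sham array at most 0.09. So uninephrectomy arrays of the 2 chambers cannot be taken as independent either. With the sham arrays of the same number as a replicate block, an alternative chosen after the data were seen, the test between chambers again called 0 and left 1130 under an unadjusted p of 0.05 (3.76%). That fit took each uninephrectomy array as a block of its own. The genes set beside the ventricle here were chosen for their atrial differences, so smaller values in the ventricle carry no weight of their own. The count of shared signs carries none either, since sham arrays of the same number deviated together. Its share over all genes was not counted. The median difference of the matrix list was 0.03 in the ventricle, where 35 of 60 members were higher. The share of all genes higher in the ventricle was not counted.

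Of the probe sets for which no gene symbol was supplied, Cfa.9728.1.A1_at had 2.12, 2.27, 8.05, 2.86 and 1.95 after uninephrectomy and 9.98, 10.29, 8.01, 7.92 and 7.88 after sham. It was near the floor in 4 uninephrectomy arrays and high in the other and in every sham array, a difference of -5.37 ± 1.19 (adjusted p = 0.631) beside -5.76 in the ventricle. Cfa.3951.1.A1_at differed by 0.84 ± 0.18, Cfa.6444.1.A1_at by 0.55 ± 0.12 and Cfa.15451.1.A1_at by -0.33 ± 0.07, and the groups of these 3 probe sets did not overlap.

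POLR2C, a subunit of RNA polymerase II, showed how a difference can depend on the probe set. Its brightest probe set had 9.02, 9.03, 8.99, 9.09 and 9.07 after uninephrectomy and 8.93, 8.82, 8.91, 8.88 and 8.92 after sham, separated by a difference of 0.15 ± 0.05 (adjusted p = 0.663). A weaker probe set of the same gene differed by 0.90 ± 0.18 and the third by 0.41 ± 0.32.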

How the data were processed

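Total RNA was extracted with Trizol, and 100 ng was amplified and biotin labelled for Affymetrix canine arrays, per the labels' protocols. The deposited values are log2 signals. The summary, background and normalization steps the authors used are not given in the sources used here. Values ran from 0.43 to 15.0 and were used as deposited, since no scanner files were used. Arrays carry no read depth, and their number limits the precision. Of 43035 probe sets, 111 were controls, and the dimmest 30% of the rest (mean over the 20 arrays of 1.87 or less) were dropped too, so that 30047 were tested. The supplied annotation gives 29264 probe sets a single symbol, gives 439 several, and lacks 13332; tested probe sets with 1 symbol cover 11423 genes, each represented by its brightest probe set. The test was that of limma 3.58.1 under R 4.3.3 (lmFit, eBayes, two-sided), fitted to all 20 arrays with the 4 group means as terms (16 residual degrees of freedom), and p-values were adjusted over all tested probe sets by Benjamini-Hochberg (called under 0.05). The method was tested on simulated data whose arrays were independent. Where nothing else ties an array to a dog, p-values measure the spread between these samples only. Named genes were, per direction, the 12 with the smallest p at log2 4 or more and the 8 largest without overlap, the 3 smallest p of each list, and a fixed set of 19, of which 1 is not reported here. PCOLCE, MMP2, VCAN, CD59, MYL3, MYBPC1, SFRP4, VSNL1, FEM1C, RAB9B, TPD52 and other list members given as examples were named after their values were seen. The 36 lists hold 1075 genes, of which 796 were measured. Genes and lists were chosen with earlier results of these data known, so counts over lists are descriptions. Equal array numbers of the atrial groups were checked for pairing from deviations around the group means. Their correlations ran from -0.18 to 0.35, so the numbers were not taken as pairs. Across chambers the sham numbers did pair (correlations of 0.21 to 0.46), a hint from the data and not from the labels, and an added fit took them as a random block (limma duplicateCorrelation, correlation 0.21). Each uninephrectomy array was its own block there, although the highest correlation of an atrial one with a ventricular one of another number was 0.17 to 0.54. Alternatives were the atrial arrays alone, the number as a block, other filters, centring, quantile normalization, array weights, a trended robust prior, the 3' gap as a covariate, each array left out, and the mean over a gene's probe sets.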

Additional observations from a re-analysis of the deposited data

Results flagged for a closer look

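In 12 of 292 groups of 5 arrays tested (4.11%), over 110 genes and 36 list means, 1 atrial array stood apart from the other arrays of its group by Dixon's gap criterion. Chance gives about 1 in 20 for independent normal values. Many of these genes were chosen by their values, and all share the same arrays, so that rate is no measure for them. Uninephrectomy array 2 stood apart for EXT2 (8.30), ICAM1 (10.92) and COMP (9.23), each above its group. Uninephrectomy array 3 was high for ENO1 (11.51), array 5 for ZMYM2 (8.14) and for the mean of the heat shock and unfolded protein list (9.62), and array 4 was low for FEM1C (6.11). Sham array 5 was low for CERT1 (6.39) and high for THBS2 (2.17). Sham array 1 was low for ADM (10.56) and high for the mean of the oxidative stress list (8.42), and sham array 4 was high for the mean of the Schwann and neuronal list (3.86).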

How the results depend on the processing

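Across 21 alternative settings, 2281 of 2295 values of 110 genes kept their direction, 0 passed the test, and the smallest adjusted p was 0.248. The 14 reversals were in TRDN (-0.16) and GJA1 (0.091) with the mean over probe sets, GJA5 (0.00687) with the 3' gap as a covariate, and with arrays left out in COL1A1 (-0.00075 to 0.49), COL3A1 (-0.085 to 0.50), GJA1 (-0.24 to 0.10) and GJA5 (-0.10 to 0.066). Leaving out 1 array took the difference of 34 of the 110 genes to less than its value divided by 1.5, or turned it. Leaving out each array gave 0 to 1 called probe sets (1 without sham array 5), 205 to 369 separated higher and 238 to 483 separated lower, the most without sham array 5; with fewer arrays, fewer values have to be cleared. The no-filter setting gave 1511 lower at an unadjusted p under 0.05 and 228 separated lower. A mean of at least log2 4 left fewer probe sets, with 532 higher and 405 lower at that p and 81 and 60 separated. It also left fewer list members, and among these 9 fibroblast, 11 complement and 1 valve gene were higher. The medians there were 0.32 (matrix), 0.32 (fibroblast), 0.44 (complement) and 0.30 (valve, the value of MATN2). The medians ranged from 0.15 to 0.35 (matrix), 0.14 to 0.38 (fibroblast), 0.07 to 0.17 (complement) and 0.11 to 0.37 (valve) with arrays left out. The replicate number as a block, on the atrial arrays, called 0, with 973 higher and 741 lower at an unadjusted p under 0.05, and changed no call. The sham numbers as a replicate block across chambers, added after the data were seen, called 0, with 997 higher and 993 lower. Dim signals near the floor limit what can be seen in 38.3% of genes.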
